A study of Mus musculus with 8 samples.

Results

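The promoters described here are those at which the hydroxymethylation library of induced neurons at 7 dpi differed from that of mouse embryonic fibroblasts (MEFs) in the authors' deposited lists. All regions of the 7 dpi hyper list (more signal at 7 dpi than in MEFs) and of the 7 dpi hypo list (less signal at 7 dpi than in MEFs) were taken, each counted once by its position. This gave 13480 regions, 2204 hyper and 11276 hypo, out of 73538 in all promoter lists of the series. The labels do not spell out the unit dpi.

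The induced neurons had been generated from MEFs and kept in neuronal medium, and the MEFs came from E13.5 embryos of ICR mice and were kept in fibroblast medium. The labels name no factor that drove the conversion and no genetic change. The same MEF library also served as the comparator of induced neurons at 1, 3 and 5 dpi and of hippocampal primary neurons taken from 1-day-old ICR pups. All cells are labelled as 3 to 5 passages. Each group was 1 hMeDIP library, so every difference below is one between single libraries with no replicate check, and it carries no p-value.

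5-Hydroxymethylcytosine is made from methylated cytosine by the TET enzymes, an oxidation that can be the start of active demethylation. In hMeDIP-seq, an antibody pulls down DNA fragments that carry the mark, and these are sequenced. The mark is abundant in mature neurons and sparse in many dividing cells, and in the brain it is found mainly in gene bodies and at enhancers. A promoter that carries it is not thereby shown to be active or silent, and a larger share of marked cells cannot be told apart from more mark per cell.

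Sequences are shown so that the DNA behind the counts can be seen. They are of promoters whose listed region covered at least 150 of the 300 bases around the start site, with a ratio far from 1. Each is the reference sequence from RefSeq (GRCm38.p6, the assembly of mm10), from 250 bases before the transcription start site (TSS) to 50 after it, 5′ to 3′ on the gene's strand, with every CpG in capitals. The hyper pair is Caly (chr7:140082499-140082798, minus strand), which encodes the vesicle protein calcyon, and the zinc finger gene Zfp352 (chr4:90218570-90218869, plus strand). Caly had 38 reads at 7 dpi and 1 in MEFs, and Zfp352 had 23 and 0.
Caly: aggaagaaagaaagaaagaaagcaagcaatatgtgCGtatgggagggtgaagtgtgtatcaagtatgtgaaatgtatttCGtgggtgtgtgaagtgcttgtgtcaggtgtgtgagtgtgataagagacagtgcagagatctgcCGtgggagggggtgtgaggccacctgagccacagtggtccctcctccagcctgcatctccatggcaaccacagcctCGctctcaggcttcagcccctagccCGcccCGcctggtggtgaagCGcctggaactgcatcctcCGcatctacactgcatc
Zfp352: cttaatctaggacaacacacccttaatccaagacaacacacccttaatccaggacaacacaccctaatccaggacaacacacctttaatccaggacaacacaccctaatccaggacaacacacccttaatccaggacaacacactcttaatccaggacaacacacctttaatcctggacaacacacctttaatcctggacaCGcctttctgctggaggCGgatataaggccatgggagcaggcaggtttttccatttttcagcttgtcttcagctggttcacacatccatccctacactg
The pair listed at 7 dpi only is Eef1a2 (chr2:181156966-181157265, minus strand), the translation elongation factor form of neurons and muscle, and Exoc2 (chr13:30973998-30974297, minus strand), a subunit of the exocyst that tethers vesicles. Each had 17 reads at 7 dpi and 0 in MEFs.
Eef1a2: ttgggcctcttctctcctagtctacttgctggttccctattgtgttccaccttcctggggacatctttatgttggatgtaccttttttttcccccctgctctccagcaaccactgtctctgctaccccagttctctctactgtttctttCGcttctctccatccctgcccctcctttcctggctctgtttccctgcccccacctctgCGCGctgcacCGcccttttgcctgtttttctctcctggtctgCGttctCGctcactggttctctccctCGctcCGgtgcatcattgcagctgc
Exoc2: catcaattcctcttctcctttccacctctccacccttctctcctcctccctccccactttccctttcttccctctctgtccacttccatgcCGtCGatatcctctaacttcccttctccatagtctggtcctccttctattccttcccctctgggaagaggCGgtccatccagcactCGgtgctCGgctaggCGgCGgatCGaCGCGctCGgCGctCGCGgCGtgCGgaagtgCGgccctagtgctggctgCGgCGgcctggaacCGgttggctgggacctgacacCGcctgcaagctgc
The hypo pair is Arfgef2 (chr2:166805331-166805630, plus strand), an exchange factor for ARF proteins in vesicle traffic, and Tmbim1 (chr1:74304287-74304586, minus strand), a membrane protein gene. Arfgef2 had 0 reads at 7 dpi and 89 in MEFs, and Tmbim1 had 0 and 65.
Arfgef2: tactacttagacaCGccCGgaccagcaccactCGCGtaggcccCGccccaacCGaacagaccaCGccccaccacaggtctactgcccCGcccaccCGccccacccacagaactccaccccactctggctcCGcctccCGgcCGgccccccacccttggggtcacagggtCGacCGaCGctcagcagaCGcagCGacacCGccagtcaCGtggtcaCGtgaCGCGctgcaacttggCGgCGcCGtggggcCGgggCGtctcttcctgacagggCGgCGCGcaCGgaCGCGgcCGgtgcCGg
Tmbim1: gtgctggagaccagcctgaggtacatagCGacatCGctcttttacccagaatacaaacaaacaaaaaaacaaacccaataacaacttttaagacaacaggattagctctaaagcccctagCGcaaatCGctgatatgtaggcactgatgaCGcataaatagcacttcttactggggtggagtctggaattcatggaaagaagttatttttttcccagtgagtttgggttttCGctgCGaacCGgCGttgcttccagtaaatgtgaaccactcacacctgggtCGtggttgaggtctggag
These windows held very different numbers of CpGs. There were 8 in Caly, 2 in Zfp352, 8 in Eef1a2, 21 in Exoc2, 35 in Arfgef2 and 10 in Tmbim1, beside a median of 7 over 32851 RefSeq promoter windows. The Zfp352 window is largely a tandem repeat, with 9 copies of GACAACACAC on the gene's strand and 0 on the other, and 0.0517% of all windows hold these letters on either strand. CpG content was not compared between the lists, and a promoter sequence was at hand for 76.7% of hyper and 76.8% of hypo genes. The windows shown describe single promoters and not the lists.

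Most listed promoter regions had less signal in the 7 dpi library than in the MEF library, which was not particular to 7 dpi. Hyper shares in the other comparisons with the same MEF library were 21.7% at 1 dpi, 22.5% at 3 dpi, 31.7% at 5 dpi and 15.7% in primary neurons. Most 7 dpi hypo regions, 7079 in number, shared bases with a hypo region in all 4 other comparisons. Whether this came from the shared MEF library or from the other cells was not tested. At 7 dpi, hyper regions made up 16.4% of the list (exact 95% interval 15.7 to 17.0%, counting error only, as for all intervals here). The deposited values were whole reads multiplied by 1 factor per library, so reads could be recovered, and a 7 dpi read was worth 1.75 MEF reads after the authors' scaling. Hyper regions held 9 to 273 reads at 7 dpi, with a median of 11, and 91.2% of them had no MEF read. Hypo regions held 0 to 42 reads at 7 dpi and 15 to 217 in MEFs, with medians of 0 and 24. A 7 dpi read was absent from 56.3% of hypo regions. Hyper regions were shorter, with a median of 260 bp, against 380 bp for hypo regions. The hyper share was lower among deeper regions. It was 6.68% (5.94 to 7.49%) among regions that reached 30 MEF reads, or 7 dpi reads worth as many after scaling, in the higher library. This limit was chosen after seeing the data and left 275 hyper and 3840 hypo regions.

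A window listed with 0 MEF reads could lie within a few bases of one with many. Of 23 pairs of windows that shared at least 80% and were on opposite lists at 7 dpi and in another comparison, 21 had 0 MEF reads in 1 window and 15 to 36 in the other, with starts 20 to 40 bp apart. A MEF peak met 183 hyper regions, and 169 of these were listed with 0 MEF reads. Zeros in MEFs, and every fold given against one, are therefore the deposited values and may not show that the library held no read there. How reads were counted in a window is not given in the sources used here.

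**Figure D1:**
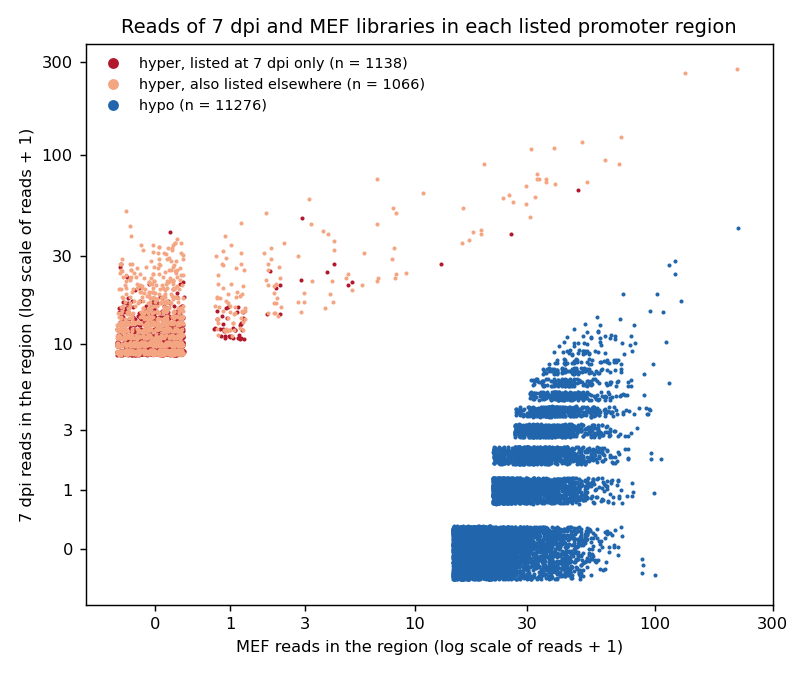
Reads of the 7 dpi library (vertical axis) and of the MEF library (horizontal axis) in each of the 13480 listed promoter regions, both on a log scale of reads + 1, with points spread slightly around whole numbers. Most hyper regions sit at 0 MEF reads, and hypo regions start at 15 MEF reads.

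Of 26220 RefSeq genes, 1952 (7.44%) had a hyper region and 8994 (34.3%) a hypo region, and these shares are the background for every group of genes below. Both kinds of region were found at 854 genes (3.26%), so that 43.8% of hyper genes were also hypo genes (41.5 to 46.0%). Regions of the opposite kind could lie side by side: 35.5% of hyper regions were within 2000 bp of a hypo region, and 6.94% shared bases with one. Regions thinned out towards the start site in both lists. The bins of 500 bp on either side of the TSS held 9.85% and 8.80% of hyper regions, against 12.6 to 15% in the 6 other bins, and 10.6% and 9.77% of hypo regions, against 12 to 14.2%. Regions centred within 500 bp of the TSS made up 18.6% of the hyper list (17.0 to 20.3%) and 20.4% of the hypo list (19.7 to 21.2%), and 51.6% and 50.2% were centred upstream.

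Regions were ranked by the bound nearest 1 of the exact 95% interval of their ratio, and not by the ratio itself. This favours regions without a read in the lower library. Predicted genes and clone symbols, of which 6 regions lay farther, were left out. The 10 hyper regions ranked farthest from 1 belonged to genes of varied function, several of them known for other tissues than brain or connective tissue. The region of Sgsh, the lysosomal sulfamidase that degrades heparan sulfate, lay at chr11:119353401-119354120, downstream of the TSS, and had 51 reads at 7 dpi and 0 in MEFs, at least 29.7-fold higher. Such folds count 0 reads as 3, in either library, and include the scaling. The exact 95% interval of a ratio reaches nearer to 1 than they do, and for Sgsh it began at 23.3. The region of Zan, the sperm protein zonadhesin, had 38 reads at 7 dpi and 0 in MEFs, at least 22.2-fold higher (chr5:137477301-137477920). Iqcf5, an IQ motif gene, Pcdhgc4, a gamma protocadherin of neuronal cell recognition, and Tmed6, a cargo transport gene of the p24 family, each had 35 reads at 7 dpi and 0 in MEFs. Lactbl1, related to lactamases, had 34 reads at 7 dpi, against 0 in MEFs. Myom3, a protein of the sarcomere's M band, and Slc17a1, a phosphate transporter of kidney, had 33 each at 7 dpi and 0 in MEFs. Unc93b1, a chaperone of nucleic-acid sensing Toll-like receptors, had 32 reads at 7 dpi, against 0 in MEFs, in a region centred upstream of the TSS. All 10 regions were listed at 0 in MEFs, which the ranking favours. Caly, with 38 reads at 7 dpi and 1 in MEFs, was 66.5-fold higher but ranked below them, as its interval began at 11.2. The regions of Slc17a1 and Unc93b1 shared 240 and 166 bp with a MEF peak, so for them the listed 0 and the peak list differ.

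The other comparisons share the MEF library, and their own values at these regions are given side by side. At Sgsh the overlapping hyper regions had 25 reads at 3 dpi, 44 at 5 dpi and 19 in primary neurons, each against 0 MEF reads. Iqcf5 had 13, 15 and 36 reads at 1, 3 and 5 dpi, with 9 reads in the primary neuron library. The Zan region met a hyper region of primary neurons alone (23 reads). Some met hypo regions of other comparisons. Tmed6 shared 120, 140 and 120 bp with hypo regions of 1, 3 and 5 dpi, which had 1, 2 and 1 reads against 24 in MEFs. Iqcf5 and Myom3 each shared 100 bp with a hypo region of 1 dpi, with 1 read against 23 in MEFs and 0 against 16. At Slc17a1 and Unc93b1 the hyper region shared bases with a hypo region of the same comparison and with hypo regions of every other comparison. The Unc93b1 promoter held 2 more hyper regions, with 29 reads at 7 dpi and 2 in MEFs and with 30 and 0, and a hypo region with 8 reads at 7 dpi and 60 in MEFs.

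By the same ranking, the 10 farthest hypo regions, with 2 of clones or predicted genes left out, had no 7 dpi read and 67 to 100 MEF reads. Inadl, with 1 read at 7 dpi and 99 in MEFs, was 56.6-fold lower but ranked below them. Rad50, a subunit of the complex that senses DNA double-strand breaks, had 0 reads at 7 dpi and 100 in MEFs (chr11:53705301-53705940), at least 19-fold lower, with an interval of the ratio that reached 0.0658. Trim43c, a tripartite motif gene, had 0 at 7 dpi and 90 in MEFs, and the Arfgef2 region shown above had 0 and 89. The olfactory receptor gene Olfr677 had 0 reads at 7 dpi, against 74 in MEFs, the zinc finger gene Zc2hc1a 0 against 73, and Tal1, a master regulator of blood formation, 0 against 71. Trmt61b, a mitochondrial tRNA methyltransferase, also had 0 reads at 7 dpi and 71 in MEFs. Mpzl3, a relative of myelin protein zero, and Zufsp, a ubiquitin peptidase, had 0 at 7 dpi and 68 in MEFs, and Herc2, a ubiquitin ligase, had 0 and 67. In the other comparisons Rad50 had 2, 1 and 4 reads at 1, 3 and 5 dpi, with 5 reads in primary neurons, over hypo regions with the same 100 MEF reads. Arfgef2 had 4, 5 and 3 reads at these days and 3 in primary neurons, each against 89.

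**Figure D2:**
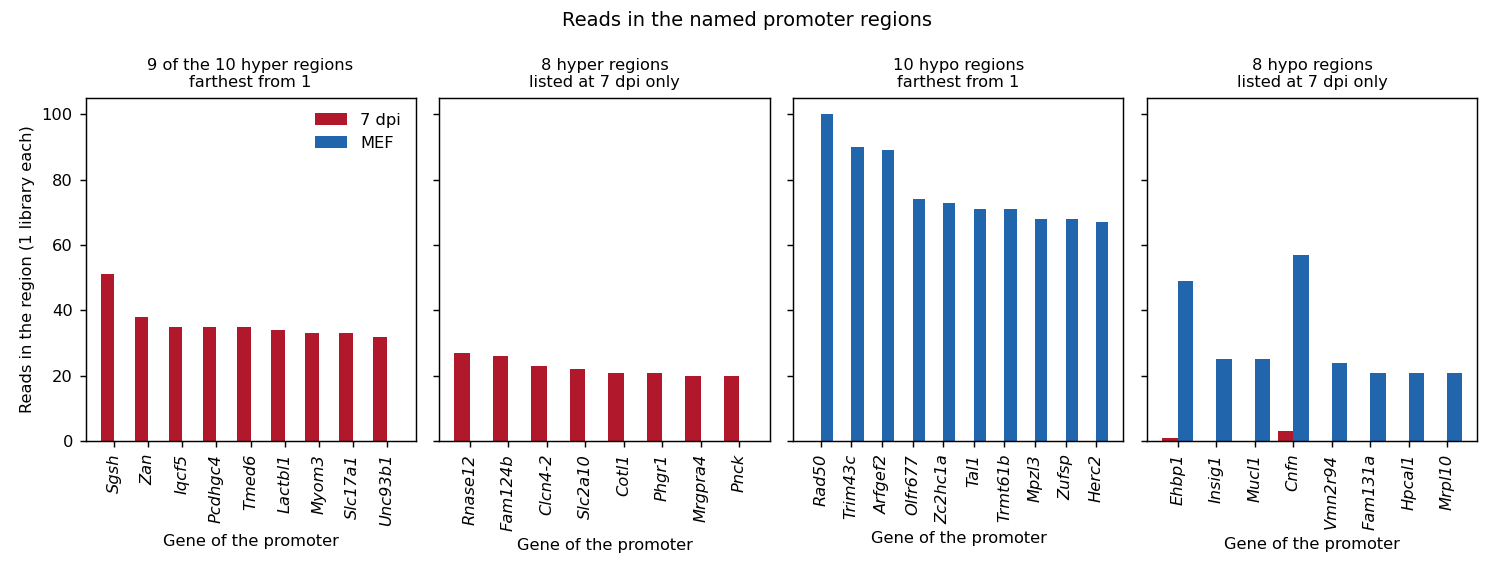
Reads in single promoter regions (1 library each), 7 dpi in red left of MEFs in blue. Shown are 9 of the 10 hyper regions and the 10 hypo regions ranked farthest from 1 by the interval bound nearest 1. The 8 of each kind so ranked among those listed at 7 dpi only are shown too. The 9 hyper regions hold 32 to 51 reads at 7 dpi and 0 in MEFs, and the 8 listed at 7 dpi only hold 20 to 27 and 0.

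What was found on this day only was largely a set of shallow hyper regions. Of the 2204 hyper regions, 1138 (51.6%, 49.5 to 53.7%) shared no base with a hyper region of the 1, 3 or 5 dpi or the primary neuron comparison. They are called listed at 7 dpi only, which does not show that the mark was absent elsewhere, since the lists hold called regions alone. Of the hypo regions, 123 of 11276 shared none with a hypo region elsewhere (1.09%, 0.907 to 1.3%), at 121 genes (0.461%). The 1138 hyper regions had a median of 10 reads at 7 dpi, against 12 for the other 1066. The lowest number listed, 9 reads, was seen in 39.1% of them (36.3 to 42.0%), against 20.5% of the others, and 22 regions had 20 reads or more, against 199 of the others. A MEF read was absent from 1088 of the 1138. They touched 1087 genes (4.15% of RefSeq genes), of which 603 were in no other hyper list.

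**Figure D3:**
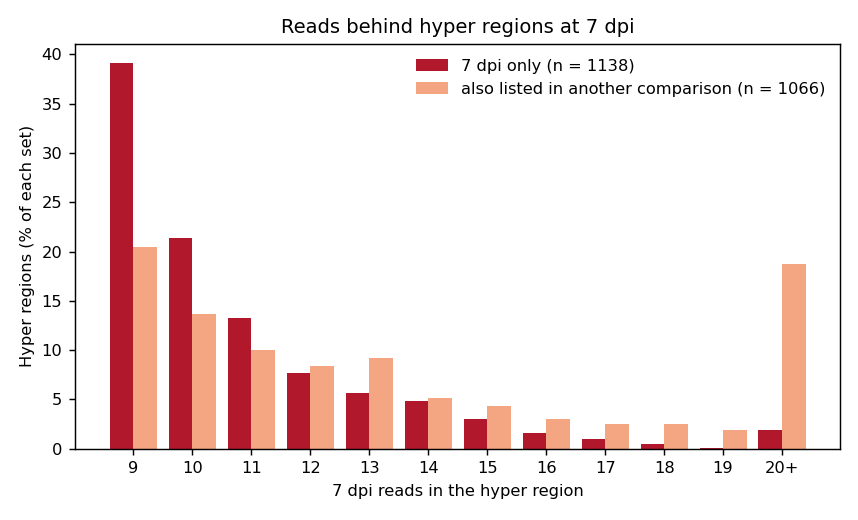
Distribution of 7 dpi reads over the hyper regions listed at 7 dpi only (n = 1138, red) and over those also listed in another comparison (n = 1066, orange), in percent of each set, with 20 reads or more in the last bin. The lowest bin, 9 reads, holds 39.1% of the first set and 20.5% of the second.

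Regions listed at 7 dpi only were again ranked by the interval bound nearest 1. Among the hyper ones, the clone symbols G530011O06Rik (47 reads at 7 dpi and 3 in MEFs) and 1700013H16Rik (40 and 0) lay farthest. The next 8 had 20 to 27 reads at 7 dpi and 0 in MEFs, and Zfp467, with 20 and 0, tied with the last of them. Rnase12, of the ribonuclease A family, had 27 reads at 7 dpi and 0 in MEFs, at least 15.7-fold higher (chr14:51058201-51058620). Its region shared bases with a MEF peak and with a hypo region that had 15 reads at 7 dpi and 96 in MEFs. Fam124b had 26 reads at 7 dpi, against 0 in MEFs, in a region centred 274 bp downstream of the TSS (chr1:80213481-80213860). Clcn4-2, a chloride and proton exchanger of endosomes, had 23, and Slc2a10, the glucose transporter GLUT10, had 22, both against 0 in MEFs. Cotl1, which binds filamentous actin, and Phgr1 had 21 each at 7 dpi and 0 in MEFs. The sensory neuron receptor gene Mrgpra4 and Pnck, a kinase activated by calmodulin, had 20 each at 7 dpi and 0 in MEFs, at least 11.7-fold higher. Phgr1 and Mrgpra4 also shared bases with a hypo region of the same comparison. Cotl1 shared 40, 180 and 120 bp with hypo regions of 1, 3 and 5 dpi, with 1 read against 22 in MEFs, 0 against 18 and 0 against 22. Rnase12, Phgr1 and Mrgpra4 met hypo regions of other comparisons as well.

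A larger share of the hypo regions listed at 7 dpi only than of the other hypo regions sat at the edge of the promoter window, although most did not. Among all 123, 40.7% (31.9 to 49.9%) were centred over 1800 bp from the TSS, against 10.3% of the other hypo regions. Ehbp1, an actin-linked gene of endocytosis, had 1 read at 7 dpi and 49 in MEFs, a ratio of 7 dpi to MEFs between 0.000886 and 0.209. Insig1, which restrains sterol synthesis, and the mucin-like gene Mucl1 had 0 reads at 7 dpi and 25 in MEFs, at least 4.76-fold lower. Cnfn, the skin protein cornifelin, had 3 at 7 dpi and 57 in MEFs. The pheromone receptor gene Vmn2r94 had 0 reads at 7 dpi, against 24 in MEFs. Fam131a, Hpcal1, a neuronal calcium sensor, and Mrpl10, a mitochondrial ribosomal protein, each had 0 at 7 dpi and 21 in MEFs. Of these 8, Ehbp1, Insig1, Mucl1, Cnfn, Vmn2r94 and Hpcal1 were centred 1890 to 1994 bp from the TSS, just inside the 2000 bp limit of the lists. For hyper regions the shares over 1800 bp away were 12.5% at 7 dpi only and 9.19% otherwise.

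Peaks, called by the authors in each library by itself, gave a second reading of the same libraries. A 7 dpi peak met 51 hyper regions (2.31%, 1.73 to 3.03%). The 7 dpi library had 1579 peaks, 43 of them at promoters per the authors, and 40 of the 1579 met a hyper region. The few promoter peaks limit the share of hyper regions on a 7 dpi peak. A MEF peak met 183 hyper regions (8.30%, 7.18 to 9.53%), more than a 7 dpi peak did. Of hypo regions, 3 lay on a 7 dpi peak (0.0266%) and 49.2% on a MEF peak (48.3 to 50.2%). Of the 51 hyper regions on a 7 dpi peak, 13 belonged to Rn4.5s, annotated in many copies on chromosome 6, so that its reads cannot be assigned to 1 copy. Its 25 hyper regions held 10 to 123 reads at 7 dpi and 0 to 73 in MEFs. The 3 hyper regions with the most reads on a 7 dpi peak were also in repeated or shared sequence and are uncertain for that reason. Dux, a multicopy homeobox gene of the early embryo, had 273 reads at 7 dpi and 214 in MEFs, a scaled ratio of 2.23 (1.86 to 2.68). Asmt, the last enzyme of melatonin synthesis, had 261 and 133, a ratio of 3.43 (2.78 to 4.26), and the deepest Rn4.5s region had 123 and 73, a ratio of 2.95. Other genes among the 51 included Sgsh, Unc93b1, the hearing cadherin Cdh23, the neuropeptide gene Cartpt (22 reads at 7 dpi and 7 in MEFs) and the bone regulator Sp7 (22 and 0), chosen after their values were seen.

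Of the hyper regions listed at 7 dpi only, 8 (0.703%) lay on a 7 dpi peak and 89 (7.82%, 6.33 to 9.54%) on a MEF peak. The 8 were 3 regions of Rn4.5s and 1 each of 1700013H16Rik, C330021F23Rik, Rnase12, Fam124b and Abcc12. The region of 1700013H16Rik on the X chromosome had 40 reads at 7 dpi and 0 in MEFs. That of Abcc12, an ATP-binding cassette transporter, had 15 and 1, with a ratio between 4.04 and 1110. For 7 of the 8 the 7 dpi peak met no MEF peak, the exception being Rnase12, and for 6 it met no peak of the other 4 libraries. Peaks of 3 dpi and 5 dpi met 1 of the 1138 regions each, and those of 1 dpi and primary neurons met 0 (exact upper bound 0.324%).

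Genes that control neuronal fate or mark neurons were on the hypo list more often than on the hyper list. The same held for all genes (34.3% hypo and 7.44% hyper). Of the well-known ones, 6 were on neither list, but only 10092 of 26220 RefSeq genes were listed at all. Pou3f2, a factor used to turn fibroblasts into neurons in culture, Myt1l, the repressor of other fates, and Neurod1, a factor of neuronal differentiation, had no listed region at 7 dpi. Tubb3, Map2 and Rbfox3, the classical neuronal cytoskeletal and nuclear markers, had none either. Of 50 neurogenic transcription factors, 0 were hyper (exact upper bound 7.11%) and 13 were hypo (26.0%, beside 34.3% of all genes). St18, a relative of Myt1l, had 0 reads at 7 dpi and 45 in MEFs in its farthest region, the Notch target Hes1 had 0 and 36, and the cortical factor Lhx2 had 0 and 29. Of 30 pan-neuronal genes, 3 were hyper and 14 hypo (46.7%). The hyper ones were Cntn2, an axonal adhesion protein, Nefm, a neurofilament, and Thy1, which is a fibroblast marker too. They had 10, 9 and 9 reads at 7 dpi and 0 in MEFs, at or next to the lowest number listed. Cntn2 and Nefm were also on the hypo list, at 0 reads at 7 dpi and 30 and 17 in MEFs.

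Synapse genes were found in both lists. Of 44 excitatory synapse genes, 5 were hyper (11.4%) and 16 hypo. Dlgap1, a scaffold of the postsynaptic density, had hyper regions of 25 and 18 reads at 7 dpi, both against 0 in MEFs, and the NMDA receptor subunit Grin1 had 11 against 0. Of 34 inhibitory synapse and interneuron genes, 0 were hyper and 10 hypo, among them the neuropeptide Cck, with 0 reads at 7 dpi and 38 in MEFs. Of 39 vesicle release genes, 5 were hyper and 13 hypo. They were Syt3 (14 reads at 7 dpi), Syp (10), Sv2b (9), Syn2 (9) and Syt5 (9), each at 0 in MEFs. Syt1, the calcium sensor of fast release, was hypo with 0 and 31.

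Ion channels and guidance genes showed both directions. Of 58 voltage-gated channel genes, 9 were hyper (15.5%) and 22 hypo, and their hyper regions had a median of 11 reads at 7 dpi, the median of all hyper regions. The calcium channel Cacna1c had 14 reads at 7 dpi and 0 in MEFs, and it was hypo as well, with 0 and 33 in another region. Of 68 axon guidance genes, 6 were hyper and 27 hypo. Efnb3, a ligand of Eph receptors, had 14 reads at 7 dpi, against 0 in MEFs, and the semaphorins Sema5b and Sema7a had 13 against 0. Of 75 protocadherins, which tell neurons apart, 5 were hyper and 25 hypo, and of 53 amine and acetylcholine receptors 2 were hyper and 16 hypo. Adra1a, an adrenergic receptor, had 13 reads at 7 dpi and 0 in MEFs, and the dopamine receptor Drd5 was hypo with 0 and 43.

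Fibroblast genes were not confined to one direction. Of 55 fibroblast and extracellular matrix genes, 8 were hyper (14.5%) and 18 hypo, beside 7.44% and 34.3% of all genes. Of the 8 hyper ones 6 had a region listed at 7 dpi only, beside 1087 of all 1952 hyper genes. The hyaluronan receptor Cd44 had hyper regions of 13 and 10 reads at 7 dpi and 0 in MEFs, the collagen Col16a1 had 11 and 0, and the proteoglycan biglycan, Bgn, had 10 and 0. The main fibrillar collagen gene Col1a2 was hypo, with 0 reads at 7 dpi and 29 in MEFs, and Col5a2 was hypo with 1 and 52. Of 28 mesenchymal transition factors, 3 were hyper and 10 hypo, Foxc1 with 18 reads at 7 dpi and 0 in MEFs. Of 84 Wnt, BMP and TGF-beta genes, 7 were hyper and 30 hypo. Wnt5a, a ligand of the non-canonical pathway, had 16 reads at 7 dpi and 0 in MEFs, Tgfb3 had 14 and 0, and Wnt10a was hypo with 0 and 34. Of 39 Hox genes, 3 were hyper (Hoxb13 with 13 reads, Hoxa6 with 10 and Hoxa13 with 9 at 7 dpi, all at 0 in MEFs) and 16 hypo.

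Among the genes that write and remove DNA methylation, the TET genes were split between the lists. Tet1 was hypo, with 0 reads at 7 dpi and 17 in MEFs (chr10:62881761-62882060), at least 3.24-fold lower. Tet2 and Tet3 were hyper with 9 reads at 7 dpi and 0 in MEFs, at least 5.25-fold higher, which is the lowest read number listed. The Tet2 region (chr3:133546021-133546220) and the Tet3 region (chr6:83441001-83441200) were both listed at 7 dpi only. Tet3 was in no other promoter list, whereas Tet2 was in the hyper lists of 3 dpi, 5 dpi and primary neurons through other regions. The de novo methyltransferase Dnmt3a was hypo in 2 regions, with 1 read at 7 dpi each and 32 and 28 in MEFs. Dnmt1, Dnmt3b and the glycosylase Tdg were not listed at 7 dpi. Of 36 DNA modification genes in all, 4 were hyper and 12 hypo. Of 54 imprinted genes, which carry methylation of one parent's copy, 1 was hyper (Meg3, with 9 reads at 7 dpi and 0 in MEFs) and 20 hypo, Igf2 with 0 and 35. Meg3 also had hypo regions, with 0 and 17 and with 7 and 40, and its hyper region shared bases with one of them.

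Pluripotency and germline genes had the highest hyper share of the 32 lists examined, at 8 of 47 (17.0%, 7.65 to 30.8%), beside 7.44% of all genes and with 17 hypo. Astrocyte and oligodendrocyte genes (16.7%) and voltage-gated channel genes (15.5%) came close behind, so this list did not stand apart from the next ones. Nanog, a core factor of embryonic stem cells, had 29 reads at 7 dpi and 0 in MEFs, upstream of the TSS. The orphan receptor gene Esrrb had hyper regions of 14 and 12 reads, and Zp3, of the egg coat, had 12, all against 0 in MEFs. Esrrb was also hypo, with 0 reads at 7 dpi and 40 in MEFs. With at least 15 reads required, 1 of the 47 genes was left, and the median over this list's hyper regions was 11 reads, as over all hyper regions. Of 45 cell cycle genes, 1 was hyper, the spindle checkpoint kinase Bub1b with 13 reads at 7 dpi and 1 in MEFs, and 16 were hypo. E2f1, a driver of S phase, had 0 and 49.

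**Figure D4:**
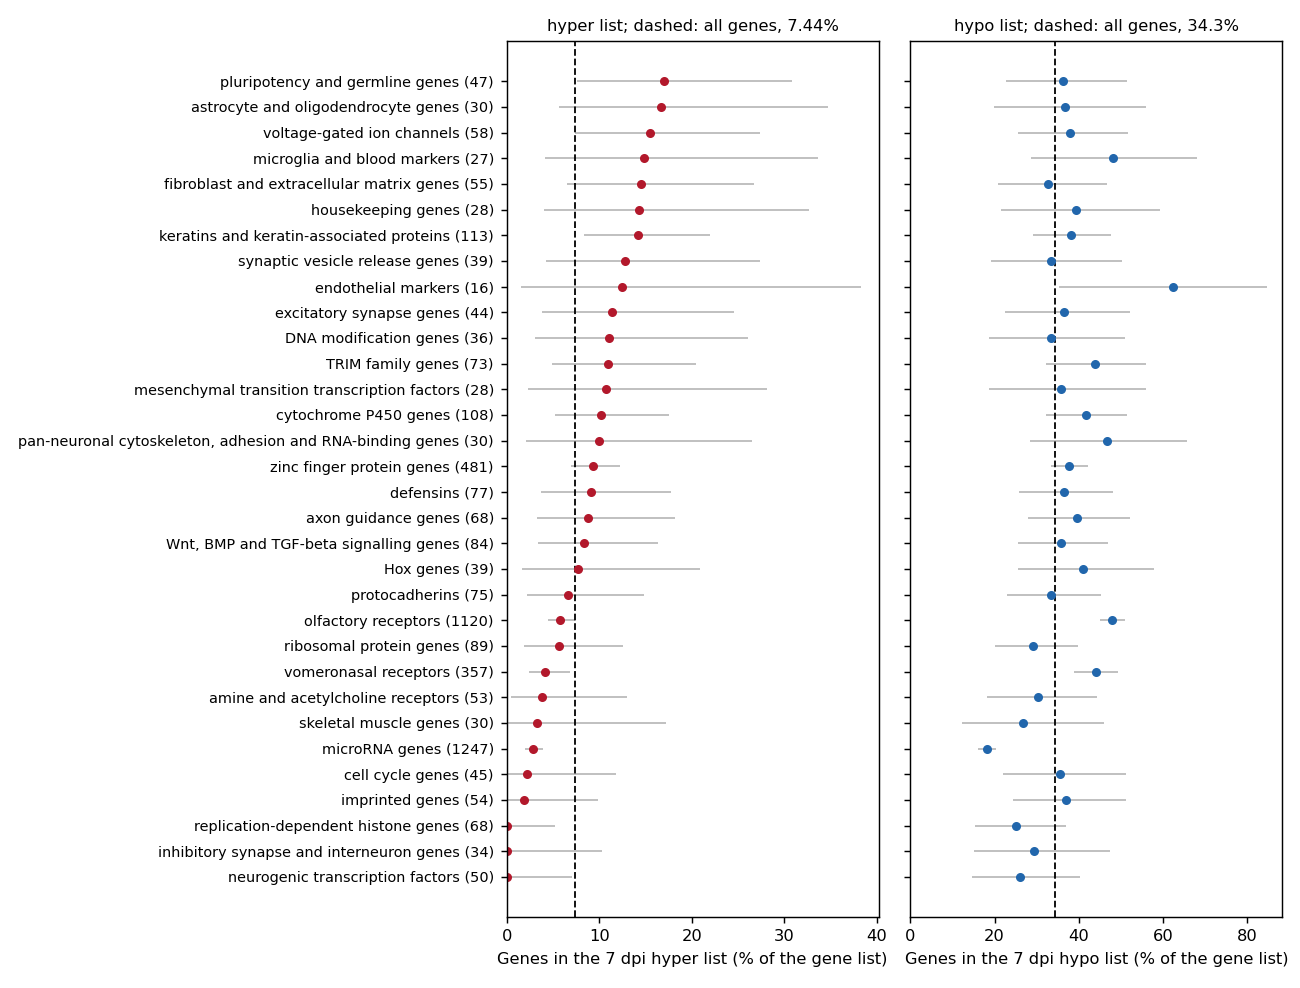
Share of each gene list (number of members in parentheses) with a region in the 7 dpi hyper list (left) and hypo list (right), in percent, with exact 95% binomial intervals. Dashed lines mark all RefSeq genes, 7.44% hyper and 34.3% hypo; genes are not replicates, so the intervals are no test.

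Genes of other cell types were listed too, in both directions, and listing says nothing of which cells were present. Of 30 astrocyte and oligodendrocyte genes, 5 were hyper and 11 hypo. The astrocyte gene Aldh1l1 had 32 reads at 7 dpi and 1 in MEFs, and the myelin gene Mobp had 20 and 0. Of 27 microglia and blood genes, 4 were hyper and 13 hypo. The microglial gene Tmem119 had 25 reads at 7 dpi and 0 in MEFs in 1 region and 0 and 22 in another, and Sfpi1, the myeloid factor PU.1, had 19 and 0. Of 16 endothelial genes, 2 were hyper and 10 hypo (62.5%). The VEGF receptor gene Flt4 had 0 reads at 7 dpi and 32 in MEFs, and endoglin, Eng, had 1 and 37. Of 30 skeletal muscle genes, 1 was hyper and 8 hypo, and of 28 housekeeping genes, 4 were hyper and 11 hypo.

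Large gene families were also counted beside the 7.44% hyper and 34.3% hypo of all genes. Of 1120 olfactory receptor genes, 65 were hyper (5.80%) and 538 hypo (48.0%). Of 357 vomeronasal receptor genes, which sense pheromones, 15 were hyper (4.20%) and 157 hypo (44.0%). Of 1247 microRNA genes, 36 were hyper (2.89%) and 226 hypo (18.1%), and Mir125b-2, of a microRNA family abundant in neurons, was hypo with 0 reads at 7 dpi and 48 in MEFs. Of 113 keratins and keratin-associated genes, 16 were hyper (14.2%) and 43 hypo, Krtap5-3 with 31 reads at 7 dpi and 0 in MEFs in 1 region and 0 and 36 in another. Of 68 replication-dependent histone genes, 0 were hyper (upper bound 5.28%) and 17 hypo. Of 481 zinc finger genes, 45 were hyper and 182 hypo. Of 73 TRIM genes, 8 were hyper and 32 hypo, and of 108 cytochrome P450 genes, 11 were hyper and 45 hypo. Of 77 defensins, 7 were hyper and 28 hypo, Defb28 with 59 reads at 7 dpi and 3 in MEFs. Of 89 ribosomal protein genes, 5 were hyper and 26 hypo. Members of these families are alike in sequence, and how the authors treated reads that fit several copies is not given in the sources used here.

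Some 7 dpi regions met a region of the opposite list in another comparison, and those with the most reads are given. The shared stretch could be as short as 20 bp, so these need not be opposite calls at the same place. Most of these promoters were on the same list as at 7 dpi in that comparison too. Clasp2, a protein of microtubule plus ends, was hypo at 7 dpi with 13 reads, against 82 in MEFs. In primary neurons it was hypo as well, with 4 and 82, and a hyper region that shared 80 bp with it had 10 reads, against 0 in MEFs. Rab23, a GTPase that restrains hedgehog signalling, was hypo with 2 reads at 7 dpi and 72 in MEFs, and hypo in primary neurons with 6 and 72, beside a hyper region of primary neurons with 10 and 0 that shared 180 bp. Likewise Bpifb4 (14 reads at 7 dpi and 72 in MEFs) shared 100 bp with a hyper region of primary neurons with 13 and 0. Vmn2r55 (5 and 77) shared 60 bp with one with 12 and 0. Both were hypo in primary neurons too, with 11 and 72 and with 13 and 77.

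Among the other days, the hypo regions of Arl9 (17 reads at 7 dpi and 128 in MEFs), Inadl, a scaffold of tight junctions (1 and 99), and Olfr702 (8 and 98) met hyper regions of 3 dpi with 18, 9 and 11 reads, against 0 in MEFs. At 3 dpi the same promoters were also hypo, with 12 reads against 128 in MEFs for Arl9, 8 against 99 for Inadl and 4 against 67 for Olfr702. Ppef2, a phosphatase of photoreceptors (24 and 121), met a hyper region of 5 dpi with 13 and 0 and a hypo region of 5 dpi with 17 and 121. The opposite windows shared 40 bp at Arl9, 160 bp at Inadl, 280 bp at Olfr702 and 40 bp at Ppef2, so they also held different bases. Their MEF reads differed although the MEF library was the same, and whether the different bases account for this was not tested. In repeated sequence both windows held many reads. Rn45s, the ribosomal RNA precursor, was hypo with 42 reads at 7 dpi and 217 in MEFs and with 28 and 121, beside hyper regions of 270 and 195 reads at 3 dpi and 215 and 179 in primary neurons. Sfi1, a centrosome gene, was hypo with 27 and 114. It shared 20 bp with a hyper region of primary neurons with 45 and 23, and primary neurons also had a hypo one with 20 and 93. Vmn2r29 was hyper with 90 reads at 7 dpi and 20 in MEFs. It shared 80 bp with a hypo region of primary neurons with 10 and 70, and primary neurons also had a hyper one with 34 and 12. Dux, hyper at 7 dpi, shared 280 bp with a hypo region of 1 dpi with 40 and 165 and also met a hyper one with 28 and 11.

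The X chromosome had the lowest hyper share of any chromosome at 7 dpi. There, 31 of 480 listed regions were hyper (6.46%, 4.43 to 9.04%), against 16.4% over the genome. Of these 31, 24 were listed at 7 dpi only, Pnck among them, beside 51.6% of all hyper regions. The lists of the other libraries, set against the same MEFs, gave hyper shares on the X chromosome of 6.81% at 1 dpi, 4.54% at 3 dpi, 17.2% at 5 dpi and 8.06% in primary neurons, beside 21.7, 22.5, 31.7 and 15.7% of all their regions. Chromosome 7 had the highest autosomal share at 7 dpi, at 20.6% (18.4 to 22.9%), and chromosome 3 the lowest, at 12.3% (9.91 to 15.1%). The sex of the embryos behind each library is not labelled.

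**Figure D5:**
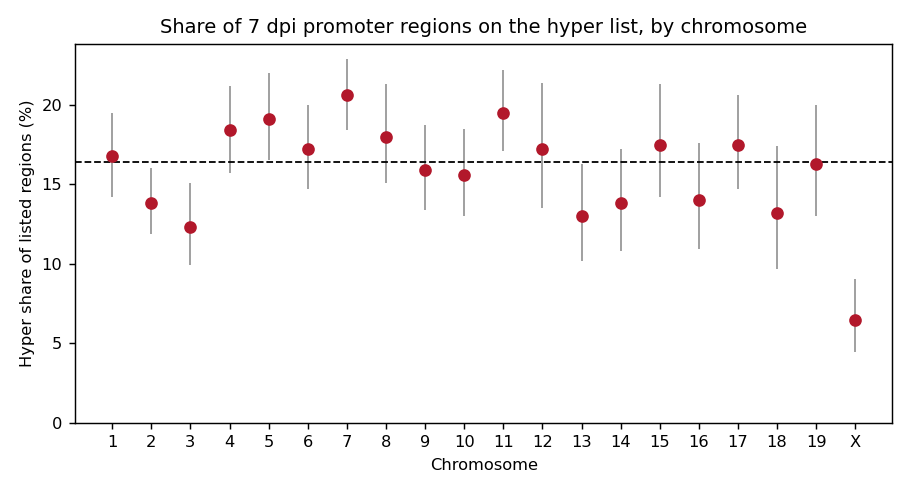
Share of listed 7 dpi promoter regions that are hyper, in percent, for each chromosome (Y, with 8 regions, is left out), with exact 95% binomial intervals. The dashed line is the 16.4% of all regions, and the X chromosome sits at 6.46%.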

How the data were processed

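5-Hydroxymethylcytosine was measured by hMeDIP-seq in 6 libraries, 1 per group, and 2 further input samples were not analysed here. Groups were taken from the sample titles and source names. For 3, 5 and 7 dpi the labels point to a hyper list under another library's code, and the file headers were followed instead. Per the submitters' processing notes, CASAVA, Bowtie2 2.1.0 and mm10 were used. Neither caller, nor its thresholds or input, is named there (not given in the sources used here).

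Per the file headers the authors named the promoter signal a count. It was whole reads times 1 factor per library, read from the values themselves: division gave whole numbers within 0.1 for 100% of the 7 dpi and MEF values. Library totals were not given. The p-value and q-value per region that the authors deposited compare 1 library with 1 library, so they served as a filter in an alternative and nowhere else. The fold enrichment of peaks is a ratio deposited by the authors, and their deposited peak q-values are on a −log10 scale.

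Overlap meant at least 1 bp. Ratios of reads have exact conditional Poisson intervals and shares exact Clopper-Pearson intervals, both at 95%, which cover counting error only because reads without molecular identifiers need not be separate molecules. A fold against 0 reads was computed at 3 reads per library. The 32 gene lists were matched by symbol and synonym to 26220 RefSeq genes, to which 10092 of 10149 listed gene IDs matched. The regions, the gene lists and the rules were chosen with earlier results of these data known. Named regions were, per list, the 10 whose interval bound nearest 1 lay farthest from it and the 8 such among those at 7 dpi only, up to 4 members of each gene list, 8 with an opposite call in primary neurons and 8 on another day by reads, 3 on a 7 dpi peak, and 14 fixed genes; symbols of predicted genes and clones were left out. Some genes that these rules name are not reported here. The read recovery and the intervals were tested on simulated data. Computation was in scipy 1.17.1, pandas 2.3.3, numpy 2.4.6 and Python 3.11.15, with figures in matplotlib 3.10.9.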

Additional observations from a re-analysis of the deposited data

Results flagged for a closer look

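At 2 promoters the 7 dpi call was the opposite of that of another library although the windows were nearly the same and both held MEF reads. The difference was not tested, since each group is 1 library. The window of Zfp799, a zinc finger gene, had 2 reads at 7 dpi and 27 in MEFs, a scaled ratio of 0.13 (0.0149 to 0.516). At 3 dpi a window that shared 89.5% of it had 44 reads, against 27 in MEFs, a ratio of 2.85 (1.73 to 4.79). The window of C330021F23Rik had 27 reads at 7 dpi and 13 in MEFs, a ratio of 3.63 (1.81 to 7.67). In primary neurons a window that shared 90% of it had 2 reads, against 30 in MEFs, a ratio of 0.12 (0.0139 to 0.473). The same MEF library thus gave 13 reads in 1 window and 30 in the other, so the opposite calls do not rest on a steady MEF value.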

How the results depend on the processing

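With 1 library per group, leaving out a library ends the comparison, and an effect of cells, antibody capture or sequencing cannot be told apart. No paired analysis was possible because each group has 1 sample. The hyper share of 16.4% became 3.78% where 15 reads were required in whichever library was higher. That limit equals the lowest MEF count of the hypo list, so it could remove hyper regions alone (443 of 2204 left) and does not bear on depth. With 30 MEF reads or their scaled worth, a setting chosen after seeing the data, the share was 6.68%. It became 18.4% with the authors' p-value below 1e-10 and 11.3% with 1 region per gene. Without hyper regions that share bases with a hypo region, also chosen after seeing the data, it was 15.4%. With log2 ratios recentred on their median and at least 1 either way, it was 38.4%. That median lay among the hypo values, so this setting could remove hypo regions alone (all 2204 hyper regions were kept) and its rise was fixed in advance. The share stayed at 16.4% with rows as deposited. The 1138 hyper regions listed at 7 dpi only became 722 when any hyper region within 2000 bp counted as the same, 626 by gene symbol and 92 with at least 15 reads. The other 4 settings gave 1060 to 1260. The 123 such hypo regions became 79, 66 and, without primary neurons, 230 under these rules. With peaks at or above the median fold enrichment, 0.726% of hyper regions met a 7 dpi peak, 4.99% a MEF peak (5.54% when 50% of the region had to be covered, against 8.3%), and 24.3% of hypo regions a MEF peak. Of the 292 gene-list members on the hyper list, 48 had 15 reads (a limit that all hypo regions pass) and 138 a region within 1000 bp of the TSS, where 884 of 1638 remained on the hypo list. All 51 regions taken by the rules for named regions kept their direction and an interval clear of 1 without scaling between the libraries, but 26 of them moved outside their interval, since hyper values then came nearer to 1 and hypo values farther from it: the fold of Sgsh was at least 17 and that of Dux 1.28. The cause of these shifts was not tested, beyond the smaller number of regions that stricter settings leave.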

Other observations

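Single microRNA, zinc finger and keratin promoters not named above had the following values. Over the hyper regions of microRNA and zinc finger genes the median was 11 and 10 reads at 7 dpi, against 11 over all hyper regions. Mir1981 had 27 reads at 7 dpi and 1 in MEFs, Mir3095 had 25 and 0, Mir1191 had 23 and 0 and Mir5104 had 20 and 0. Among hypo microRNA genes, Mir3073 had 0 reads at 7 dpi and 55 in MEFs in a region centred 13 bp from its start. The zinc finger genes Zfp872 and Zfp467 had 22 and 20 reads at 7 dpi, both against 0 in MEFs, and Zfp467 was listed at 7 dpi only. Zfp282 was hypo with 0 and 58. Among keratins, Krt77 had 19 reads at 7 dpi and 0 in MEFs, and Krt28 was hypo with 0 and 40.

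The listed MEF reads of nearly the same window could differ between comparisons. At Rpl31 the 7 dpi window had 9 reads at 7 dpi and 0 in MEFs, while the 1 dpi window, which shared 80% of it, held 1 read at 1 dpi and 29 in MEFs. At Timm22 the 7 dpi window had 0 reads at 7 dpi and 16 in MEFs, and the window of 1 dpi had 10 and 0.

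The MEF peak list and the MEF reads could also differ at 1 place. Of the 169 hyper regions on a MEF peak that were listed with no MEF read, the peak covered at least 50% of 112 and the whole of 35.

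Over the 1838 hypo windows with the same bounds in all 5 comparisons, the 7 dpi library held 2897 reads, 7.19% of the MEF value after scaling. The values were 5.89% at 1 dpi, 7.84% at 3 dpi and 8.34% at 5 dpi, and 6.95% in primary neurons, all against the same 70536 MEF reads. These windows were taken because each of the 5 comparisons lists them as hypo. Low values in every library therefore follow from the choice and do not measure how much mark was lost.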
